A study of Homo sapiens with 2 samples.

Results

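The genes examined were the enzymes, transporters and regulators of glycolysis together with the hypoxia-inducible factor (HIF) system and its targets. They were chosen by name, and all 39 were present among the 59125 rows with a count. They comprised 17 glycolytic enzymes, 3 regulators of glycolytic flux, 4 glucose and lactate transporters, 5 genes of the HIF system and 10 HIF targets outside glycolysis. The study sequenced mRNA libraries of H1944, an established cell line of human lung adenocarcinoma, that carried a control hairpin (shCON) or a hairpin against the deubiquitinase gene USP12 (shUSP12). Each group was 1 library, so the libraries are compared here and not the conditions, and no test was possible. The labels name no oxygen treatment. The methods describe lentiviral pLKO.1 hairpins, 2 of them against USP12 and a control against GFP, whereas the shCON counts were headed SHRFP, and the labels do not say which USP12 hairpin was used.

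Glycolysis splits glucose into pyruvate in the cytosol. Glucose enters through SLC2A carriers, is phosphorylated by hexokinases and passes through phosphofructokinase, the main point of control, to aldolase and the later enzymes that yield ATP, and lactate dehydrogenase then reduces pyruvate to lactate, which leaves through SLC16A carriers. In oxygen, HIF α subunits are hydroxylated by the EGLN prolyl hydroxylases, bound by VHL and degraded, whereas in hypoxia they accumulate and raise the transcription of most glycolytic genes and of many genes outside glycolysis. Lung adenocarcinoma cells are known for high glycolytic activity also in the presence of oxygen.

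The libraries held 18249112 counts (shCON) and 17475359 counts (shUSP12). Levels are given as raw counts and as counts per 1000000 (CPM) with trimmed mean of M values (TMM) scaling, and changes as the log2 ratio of shUSP12 over shCON after adding 0.1 CPM, with 95% intervals that cover counting error only. USP12 itself had 711 counts in shCON and 219 in shUSP12. The libraries stood apart in other ways. In all, 119 rows, 7 of them on the Y chromosome and none of them among the 39 genes, went from 3 counts or fewer in shCON to 50 or more in shUSP12, against 1 row the other way. Of 9 markers of epithelium and lung adenocarcinoma, KRT8 had 85596 counts in shCON and 62180 in shUSP12 (log2 ratio −0.53) and KRT18 had 24132 and 18096 (−0.49), NAPSA had 9 and 12 and SFTPB had 0 in both, while KRT7 had 13626 and 22378, CDH1 had 1026 and 2496, NKX2-1 had 0 counts in shCON and 312 in shUSP12, KRT19 had 32 and 4452, and EPCAM had 115 and 1566. The 9 markers summed to 124536 counts in shCON and 111492 in shUSP12. Of the 7 that passed the filter given below, 4 were 2-fold higher or more, where 6.48% of all rows were. NKX2-1, 1 of these 4, passed only through shUSP12, in which it was higher. The 6 fibroblast markers summed to 3274 and 2219 counts, with COL1A1 at 1911 and 462 and COL1A2 at 0 and 3, while LUM had 788 and 1103 and DCN 481 and 597. The 4 endothelial markers summed to 14 and 55 counts, with KDR at 0 and 32, and the 5 leukocyte markers to 21 and 33, with CD3E, CD68 and MS4A1 at 0 in both. The part of these differences in the results was not tested, and in bulk RNA fewer cells of a type and less RNA per cell cannot be told apart.

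The same few enzymes were at the top in both libraries. Levels between genes were compared per length, as counts per kilobase of annotated exon scaled to a sum of 1000000 in each library. On this scale GAPDH stood at 7690 in shCON and 6339 in shUSP12, followed by ENO1 (4072 and 3446), PKM (2448 and 2402), TPI1 (1732 and 1409) and LDHA (1400 and 1131). The 17 enzymes together took 2.20% of all counts in shCON (exact 95% interval 2.19% to 2.21%) and 1.93% in shUSP12 (1.92% to 1.94%). GAPDH, ENO1, PKM and LDHA alone supplied 81.6% of these enzyme counts in shCON and 80.5% in shUSP12.

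**Figure D1:**
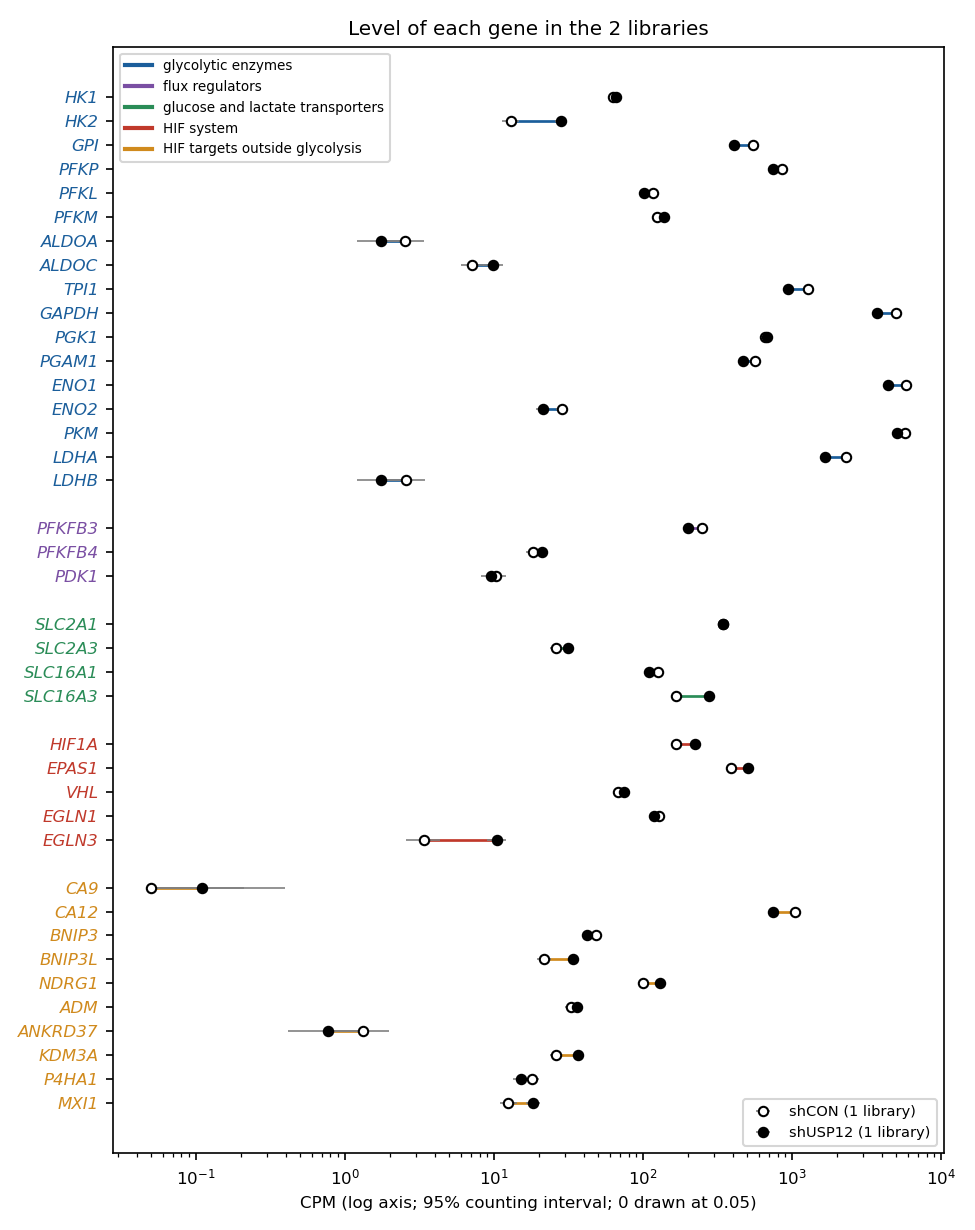
CPM of each of the 39 genes (log axis) in shCON (open circles) and shUSP12 (filled circles), 1 library each, with 95% counting intervals and names coloured by role. The abundant enzymes, such as GAPDH at 5016 and 3723 CPM, had the filled circle to the left, whereas HK2, SLC16A3, HIF1A, EPAS1 and EGLN3 had it to the right, and CA9 lay at the edge of detection.

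Of the 39 genes, 38 had a mean of at least 1 CPM and CA9 did not. Of these 38, 18 were higher and 20 lower in shUSP12, with a median log2 ratio of −0.11. Of all 14612 rows that passed, 48.9% were higher, with a median of −0.01. EGLN3 and HK2 were higher by 2-fold or more, 2 of 38 genes where 6.48% of all rows were, and none was lower by as much, where 3.01% of all rows were. At 1.5-fold, 4 genes were higher (EGLN3, HK2, SLC16A3 and BNIP3L; 11.9% of all rows) and 1 was lower (ANKRD37; 9.11% of all rows). ANKRD37 passed the filter through shCON alone, the library in which it was higher. The numbers past both thresholds were thus near or below those of the transcriptome, and most of the genes moved by less than 1.5-fold. With scaling to total counts alone, the background at 2-fold was 7.77% higher and 1.99% lower, the median of all rows moved up by 0.13 and 7 of the 38 genes were at least 1.5-fold higher, where 15.7% of all rows were, and 1 was lower by as much, where 6.20% of all rows were. The medians of the enzymes and of the HIF system kept their signs under this scaling. The intervals of HK1, PFKFB4, SLC2A1 and ADM then lay above 0, and those of PFKL, SLC16A1, BNIP3 and EGLN1 included 0. The enzymes and the other genes were divided differently. Among the 17 enzymes, 5 were higher and 12 lower, with a median of −0.26, whereas among the 21 other genes that passed, 13 were higher and 8 lower, with a median of 0.14. Without ALDOA and LDHB, whose counts are uncertain as described below, the median of the enzymes was −0.20. The lists were not matched for level. Of the 17 enzymes, 11 had a mean of at least 100 CPM and 9 of these were lower, while 30.9% of all rows at that level were higher. The difference between the lists was not tested.

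**Figure D2:**
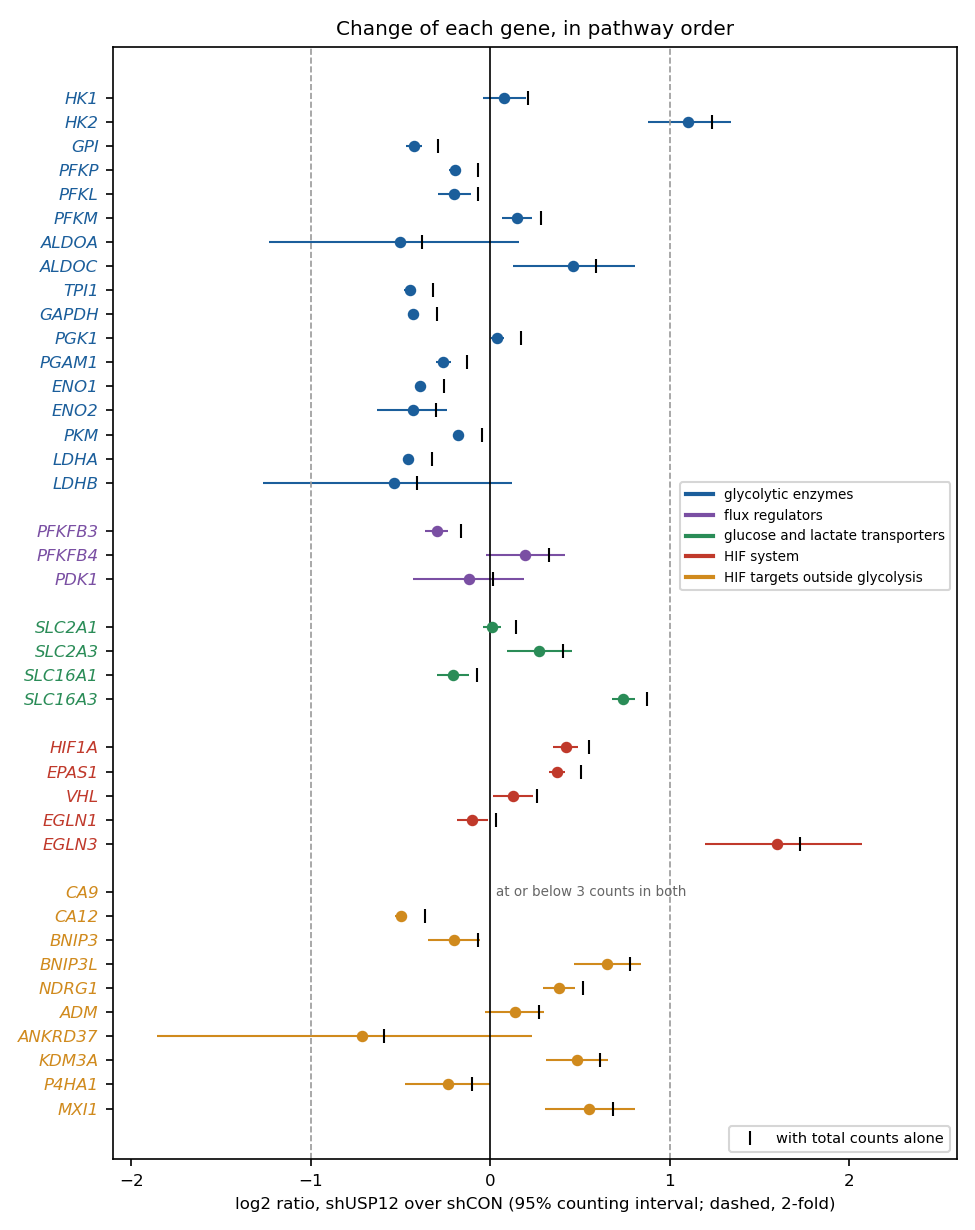
Log2 ratio of shUSP12 over shCON for each gene in pathway order, coloured by role, with 95% counting intervals, and black ticks for the ratio with total counts alone. Most enzymes from GPI to LDHB lay between −0.54 and 0, HK2 (1.10) and EGLN3 (1.60) lay past the dashed 2-fold line, and HIF1A (0.42) and EPAS1 (0.37) lay to the right of 0.

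The core of the hypoxia response element, the site that HIF binds, is ACGTG or GCGTG. Both were searched on both strands in promoter windows of 300 bases (250 before and 50 after the start, RefSeq, GRCh38.p14), taking for each gene the window nearest to the start of its main transcript. A CACGTG is counted on both strands and also matches the E-box bound by other factors. A window was found for 34 of the 39 genes. Not all lay close to the main transcript: the starts in the windows of PFKM, PGAM1 and GAPDH were 3283, 1627 and 747 bases from its start. ACGTG occurred in 16 of the 34 windows (47.1%) and in 21.4% of all 35116 windows, and either core occurred in 28 (82.4%) and in 48.4% of all windows. Some genes have several of all windows, such as HK1 with 7, whereas each gene examined counts once. The windows were not matched for base content, and the genes examined include known HIF targets. The share with ACGTG was 8 of 17 for the enzymes and 4 of 8 for HIF targets outside glycolysis. Among the genes that passed the filter, the 15 with ACGTG had a median log2 ratio of −0.24 (4 higher, 11 lower) and the 18 without it a median of 0.04 (10 higher, 8 lower), which is a description and not a test. The genes with and without ACGTG were not matched for level. Such a match is not a binding site.

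The sequences upstream of HK2, which was higher, PGK1, which was nearly level, LDHA, which was lower, SLC16A3, which was higher, and CA9, which was barely detected, are shown 5′ to 3′ on the strand of the gene with each match in capitals (a match on the other strand reads CACGT or CACGC). They cover 250 bases to the start of HK2 (chr2:74833877-74834126, plus strand), PGK1 (chrX:78103998-78104247, plus strand) and SLC16A3 (chr17:82228792-82229041, plus strand), and 30 bases of LDHA (chr11:18394472-18394501, plus strand, 91 to 62 bases before the start) and of CA9 (chr9:35673898-35673927, plus strand, the 30 bases before the start).
HK2: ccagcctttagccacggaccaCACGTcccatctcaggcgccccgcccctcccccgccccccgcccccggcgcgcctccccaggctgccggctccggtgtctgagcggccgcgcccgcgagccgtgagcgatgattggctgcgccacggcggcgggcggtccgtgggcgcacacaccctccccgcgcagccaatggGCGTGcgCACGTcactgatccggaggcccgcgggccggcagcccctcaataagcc
PGK1: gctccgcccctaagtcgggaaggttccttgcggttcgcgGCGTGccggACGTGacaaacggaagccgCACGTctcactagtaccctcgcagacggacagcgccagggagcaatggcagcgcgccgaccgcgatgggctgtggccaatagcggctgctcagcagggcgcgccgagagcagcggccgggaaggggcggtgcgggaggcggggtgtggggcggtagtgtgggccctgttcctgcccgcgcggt
LDHA: ctcaCACGTGggttcccgCACGTccgccgg
SLC16A3: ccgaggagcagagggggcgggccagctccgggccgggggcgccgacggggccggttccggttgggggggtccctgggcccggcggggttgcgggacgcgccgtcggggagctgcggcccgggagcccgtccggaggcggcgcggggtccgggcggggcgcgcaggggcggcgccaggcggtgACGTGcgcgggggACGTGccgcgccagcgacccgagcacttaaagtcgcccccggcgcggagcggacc
CA9: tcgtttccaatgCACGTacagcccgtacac
HK2 held ACGTG at −229 and −48 and GCGTG at −55, PGK1 held ACGTG at −202 and −183 and GCGTG at −211, and SLC16A3 held ACGTG at −68 and −55, all counted back from the start. The core was therefore present upstream of genes that were higher, nearly level, lower and barely detected.

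Hexokinase, which traps glucose in the cell as glucose 6-phosphate, included the gene with the largest change of the 17 enzymes. HK2 (ENSG00000159399; chromosome 2, 74834127 to 74893359 on GRCh38), the inducible isozyme, had 227 counts in shCON, or 13.02 CPM (11.4 to 14.8), and 514 in shUSP12, or 28.1 CPM (25.7 to 30.6), a log2 ratio of 1.10 (0.88 to 1.34). HK1, the isozyme found in most cells, had 1088 and 1206 counts, and its log2 ratio of 0.08 had an interval from −0.04 to 0.20 that included 0. HK2 was thus 2.15-fold higher. With total counts alone the log2 ratios were 1.23 (1.01 to 1.47) for HK2 and 0.21 (0.09 to 0.33) for HK1. In counts, HK2 was 17.3% of the sum of both in shCON and 29.9% in shUSP12. These shares leave out HKDC1, a hexokinase from the neighbouring lists, which was named after its values were seen. HKDC1 had 2247 and 1999 counts (−0.24, interval −0.33 to −0.15). Its per-length level was 112 and 106, beside 33.3 and 39.1 for HK1 and 8.08 and 19.4 for HK2.

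GPI, which converts glucose 6-phosphate to fructose 6-phosphate, had 9486 and 7418 counts, a log2 ratio of −0.42 (−0.47 to −0.38). The phosphofructokinases, which make fructose 1,6-bisphosphate, divided by isoform. PFKP, the platelet type, had 14882 and 13617 counts (log2 ratio −0.20). PFKL, the liver type, had 2020 and 1845 counts (−0.20). PFKM, the muscle type, had 2170 and 2530 counts (0.15, interval 0.07 to 0.23). PFKP remained the most abundant isoform in both libraries, at a per-length level of 403 and 391 beside 63.1 and 77.9 for PFKM and 47.7 and 46.1 for PFKL.

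Aldolase, which splits fructose 1,6-bisphosphate into 3-carbon units, was read at low counts in both isozymes. ALDOC, the brain type, had 125 and 181 counts, a log2 ratio of 0.46 (0.13 to 0.80). ALDOA, the isozyme that most cells use, had only 44 and 32 counts, and its interval from −1.23 to 0.16 included 0. The counts of ALDOA are uncertain, since 89.8% of its main transcript overlaps AC093512.2, another annotated gene on the same strand (33 and 17 counts), and whether fragments that fit both genes were left out in counting was not tested. The same limit touched LDHB, of whose main transcript 76.5% overlaps AC010197.2 (3 and 2 counts).

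The enzymes after aldolase, which carry the 3-carbon units to pyruvate, included the most abundant of the path and were lower except for PGK1. TPI1, which interconverts the triose phosphates, had 22190 and 17063 counts (log2 ratio −0.45, interval −0.48 to −0.42). GAPDH, which oxidises glyceraldehyde 3-phosphate, had 87426 and 68113 counts (−0.43, interval −0.44 to −0.42). PGK1, the first ATP-yielding enzyme of the path, had 11450 and 12353 counts (0.04, interval 0.003 to 0.08) and was the exception among them. PGAM1, which moves the phosphate of phosphoglycerate, had 9760 and 8549 counts (−0.26). ENO1, the main enolase, had 100766 and 80606 counts (−0.39, interval −0.41 to −0.38). ENO2, the neuronal enolase, had 499 and 388 counts (−0.43, interval −0.63 to −0.24), so both enolases were lower to a like degree. PKM, pyruvate kinase, had 99576 and 92337 counts (−0.18, interval −0.19 to −0.17).

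Lactate dehydrogenase closes the fermentative path. LDHA, whose enzyme favours the formation of lactate, had 40026 counts in shCON (2296 CPM) and 30574 in shUSP12 (1671 CPM), a log2 ratio of −0.46 (−0.48 to −0.44). LDHB, whose enzyme favours pyruvate, had 45 and 32 counts, and its interval from −1.26 to 0.12 included 0. GAPDH, often used as a reference transcript, was thus 1.35-fold lower in shUSP12 by this scaling, and LDHA 1.37-fold lower. With total counts alone the log2 ratios of GAPDH and LDHA were −0.30 and −0.33.

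The log2 ratios of all rows fell with level, and many of these enzymes are abundant. A relation of level to change within the enzymes was not tested. Over all rows, the median log2 ratio was −0.01 at a mean of at least 1 CPM, −0.12 for the 2114 rows at 100 CPM or more and −0.24 (quartiles −0.43 and −0.11) for the 261 rows at 500 CPM or more. At 500 CPM or more, 16.9% of all rows were higher in shUSP12. The 8 enzymes at that level had a median of −0.33, and 7 of the 8 were lower. Of these, LDHA (−0.46) and TPI1 (−0.45) lay below the lower quartile of rows at that level and GAPDH lay at it, while ENO1, PGAM1, PKM, PFKP and PGK1 lay above it. The enzymes with under 100 CPM included HK2, ALDOC and HK1, which were higher, and ENO2, ALDOA and LDHB, which were lower. This comparison by level was chosen after the values were seen.

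**Figure D3:**
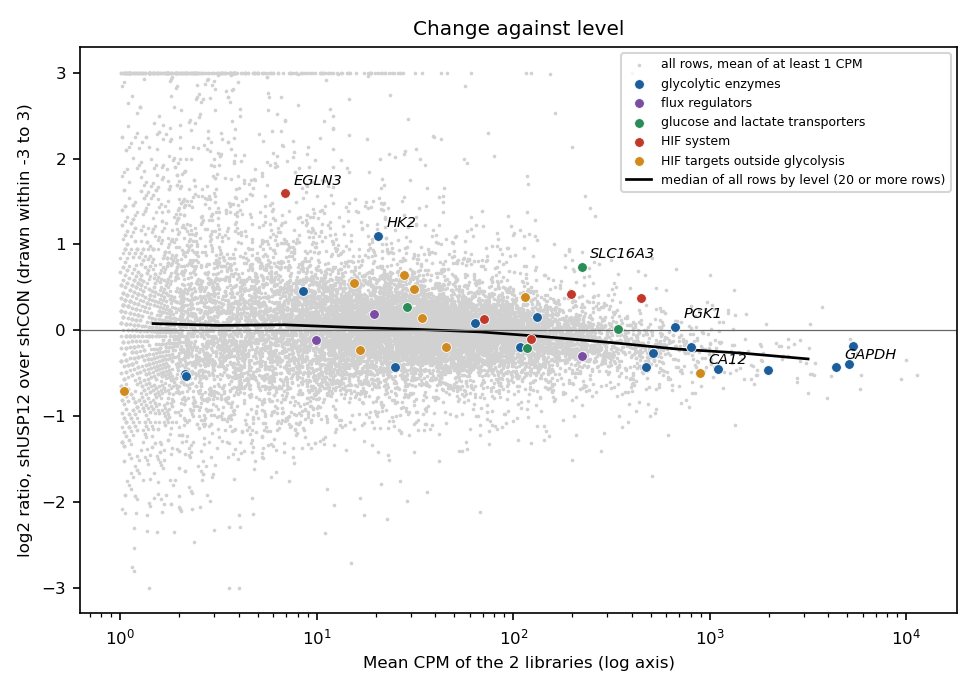
Log2 ratio of shUSP12 over shCON against the mean CPM of both libraries (log axis) for all rows that passed the filter (grey) and for the genes examined, coloured by role, with the median of all rows by level as a black line. The line falls towards the abundant rows, the abundant enzymes lie near it, and EGLN3, HK2 and SLC16A3 lie above it.

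Reads that fit a pseudogene as well as a gene are missing from counts of uniquely mapped fragments, and many glycolytic genes have processed pseudogenes. GAPDH had 62 rows named as its pseudogenes, which summed to 27 counts in shCON and 34 in shUSP12, at most 0.0499% of the counts of GAPDH. BNIP3 had 39 such rows with 14 and 40 counts, or 1.65% and 5.17% of its own. PGAM1 had 13 rows with 30 and 45 counts, and LDHA had 6 rows with 47 and 29. These sums do not show how many shared fragments were left out.

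The regulators set the flux through the path. PFKFB3 and PFKFB4 make and break fructose 2,6-bisphosphate, the activator of phosphofructokinase. PFKFB3, the more abundant, had 4311 and 3682 counts, a log2 ratio of −0.30 (−0.36 to −0.23). PFKFB4 had 318 and 382 counts, and its interval from −0.02 to 0.41 included 0. PDK1, a kinase that holds pyruvate back from the mitochondrial pyruvate dehydrogenase complex, had 180 and 174 counts, an interval from −0.43 to 0.19 and a ratio that turned from −0.12 to 0.01 with total counts alone. Of these 3 regulators, PFKFB3 alone had an interval that excluded 0.

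Among the carriers, the lactate exporter stood out. SLC16A3 (ENSG00000141526; chromosome 17, 82217934 to 82261129), which encodes the lactate exporter MCT4, had 2901 counts in shCON, or 166 CPM (160.4 to 173), and 5092 in shUSP12, or 278 CPM (271 to 286), a log2 ratio of 0.74 (0.68 to 0.81). SLC16A1, which encodes the related MCT1, had 2198 and 1997 counts (−0.21, interval −0.30 to −0.12). The main glucose carrier SLC2A1 (GLUT1) had 5951 and 6284 counts, and its log2 ratio of 0.01 had an interval from −0.04 to 0.06. SLC2A3 (GLUT3), a carrier of high affinity, had 454 and 576 counts (0.27, interval 0.09 to 0.45). With total counts alone SLC2A1 stood at 0.14 (0.09 to 0.19) and SLC16A1 at −0.08 (−0.16 to 0.01), whereas SLC16A3 was 1.67-fold higher here and stood at 0.87 there.

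Ratios of related genes within a library do not depend on the scaling, and 11 such pairs were compared. The ratio of HK2 to HK1 counts went from 0.209 in shCON to 0.426 in shUSP12, a change of 2.04-fold (exact 95% interval 1.71 to 2.45). SLC16A3 over SLC16A1 went from 1.32 to 2.55, a change of 1.93-fold (1.79 to 2.09). EGLN3 over EGLN1 went from 0.0266 to 0.0879, a change of 3.30-fold (2.44 to 4.53). HK2, SLC16A3 and EGLN3 are known as the more hypoxia-inducible gene of each pair, as are BNIP3 beside BNIP3L and LDHA beside LDHB. Of these, BNIP3 over BNIP3L was lower and LDHB over LDHA had an interval that included 1, as given below. The planned pair of CA12 over CA9 was left out, since CA9 had 0 and 2 counts. PFKM over PFKL changed 1.28-fold (1.17 to 1.39), SLC2A3 over SLC2A1 1.20-fold (1.06 to 1.37) and ALDOC over ALDOA 1.99-fold (1.16 to 3.43), the last with the overlap of ALDOA as its limit. BNIP3 over BNIP3L was lower, going from 2.24 to 1.24, a change of 0.554-fold (0.470 to 0.652). PFKP over PFKL, ENO2 over ENO1, LDHB over LDHA and EPAS1 over HIF1A changed by 1.002-fold, 0.972-fold, 0.931-fold and 0.968-fold, with intervals that included 1. The interval of EPAS1 over HIF1A ran from 0.914 to 1.03.

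**Figure D4:**
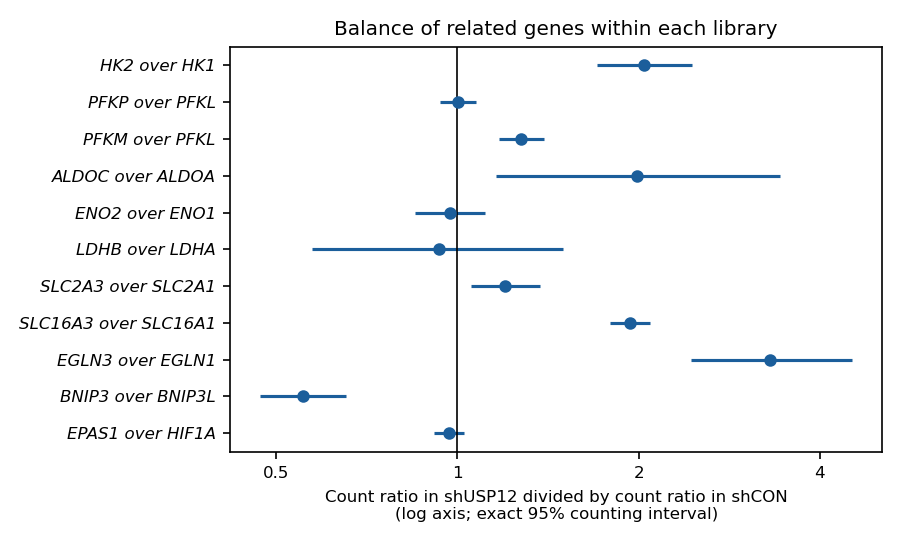
Ratio of the counts of 2 related genes in shUSP12 divided by the same ratio in shCON (log axis), 1 point a pair, with exact 95% counting intervals and a line at 1. HK2 over HK1, SLC16A3 over SLC16A1, ALDOC over ALDOA and EGLN3 over EGLN1 lie near or above 2, BNIP3 over BNIP3L lies at 0.554, and PFKP over PFKL, ENO2 over ENO1, LDHB over LDHA and EPAS1 over HIF1A have intervals that cross the line.

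Both HIF α subunits had more transcript in shUSP12. HIF1A had 2921 counts in shCON, or 168 CPM (162 to 174), and 4103 in shUSP12, or 224 CPM (217 to 231), a log2 ratio of 0.42 (0.35 to 0.49). EPAS1, which encodes HIF-2α, had 6778 and 9216 counts, or 389 and 504 CPM, a log2 ratio of 0.37 (0.33 to 0.42). EPAS1 was the more abundant of the pair in both libraries, at a per-length level of 196 and 282 beside 119.5 and 178 for HIF1A. HIF-α protein is set mainly by degradation, so these transcript levels do not give its amount.

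The genes of HIF breakdown were less even. EGLN3 (ENSG00000129521; chromosome 14, 33924227 to 34462774), a prolyl hydroxylase that HIF itself induces, had 59 counts in shCON, or 3.38 CPM (2.58 to 4.37), and 191 in shUSP12, or 10.4 CPM (9.01 to 12.03), a log2 ratio of 1.60 (1.20 to 2.07), the highest of the 38 genes. EGLN1, the main oxygen sensor, had 2217 and 2172 counts, and its ratio of −0.10 (−0.19 to −0.01) turned to 0.03 with total counts alone. VHL, which targets hydroxylated HIF α for degradation, had 1187 and 1360 counts (0.13, interval 0.01 to 0.24). EGLN3 made up 2.59% of the summed counts of EGLN1 and EGLN3 in shCON and 8.08% in shUSP12, so EGLN1 stayed the more abundant.

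HIF targets outside glycolysis moved in both directions. Of the 10, 9 passed the filter, 5 were higher and 4 lower, with a median of 0.14. Among those higher, BNIP3L, a mitophagy receptor, had 378 and 623 counts (log2 ratio 0.65, interval 0.46 to 0.84). MXI1, an antagonist of MYC, had 218 and 336 counts (0.55, interval 0.30 to 0.81). KDM3A, a histone H3 lysine demethylase, had 456 and 669 counts (0.48, interval 0.31 to 0.66). NDRG1, a stress-induced cytoplasmic protein, had 1736 and 2379 counts (0.38, interval 0.29 to 0.47). These 4 had intervals above 0, whereas ADM, which encodes the vasodilator peptide adrenomedullin, had 569 and 657 counts and an interval from −0.03 to 0.30.

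The carbonic anhydrases, which handle the acid that glycolytic cells export, were far apart. CA12 had 18203 counts in shCON (1044 CPM) and 13543 in shUSP12 (740.2 CPM), a log2 ratio of −0.50 (−0.53 to −0.46), and was the most abundant gene examined outside the enzymes. CA9, among the most hypoxia-specific of HIF targets, had 0 counts in shCON and 2 in shUSP12, both at or under the floor of 3 counts (0.164 and 0.172 CPM before TMM scaling), so no ratio is given. BNIP3, a partner of BNIP3L in mitophagy, had 847 and 773 counts (−0.20, interval −0.34 to −0.06). P4HA1, a subunit of the collagen prolyl hydroxylase, had 312 and 278 counts, and ANKRD37, an ankyrin repeat protein, had 23 and 14 counts. The intervals of P4HA1 (−0.47 to 0.001) and ANKRD37 (−1.86 to 0.23) included 0, and 54.7% of the main transcript of ANKRD37 overlaps genes on the opposite strand, whose fragments are kept apart only if strand was used in counting. Such overlap also covers 36.9% of the main transcript of CA9, 32.8% of GAPDH, 18.5% of SLC16A3 and 18.2% of ALDOC.

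Epithelial markers differed between the libraries in both directions, and the sizes of the differences are set side by side with those of the genes examined. KRT19 was 241 CPM higher in shUSP12, EPCAM 79.0 CPM higher and NKX2-1 17.1 CPM higher. Also higher were KRT7, at 782 CPM in shCON and 1223 in shUSP12, and CDH1, at 58.9 and 136 CPM. By contrast, KRT8 stood at 4911 CPM in shCON and 3398 in shUSP12 and KRT18 at 1385 and 989 CPM. The gains of the genes examined were 115 CPM for EPAS1, 112 CPM for SLC16A3, 56.7 CPM for HIF1A, 15.1 CPM for HK2 and 7.05 CPM for EGLN3. In shCON, HK2 was at 13.02 CPM, EPCAM at 6.60, EGLN3 at 3.38, KRT19 at 1.84 and NKX2-1 at 0. Whether the RNA behind KRT19 and NKX2-1 contributed to the gains of the genes examined was not tested.

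The neighbouring pathways were read from 7 lists with 101 genes, of which 81 passed the filter. Of these 81, 40 were higher and 41 lower, with a median of −0.01. Past 2-fold were 7 higher and 1 lower, where 6.48% and 3.01% of all rows were. Of the 7, SLC2A12 (0.402 and 3.44 CPM) and LOX (0.631 and 2.02 CPM) passed the filter only through shUSP12, in which they were higher, so the count of 7 is no support for a direction. Several of the higher genes belonged to the list of pyruvate entry and the pyruvate dehydrogenase complex, in which 3 of 12 genes were 2-fold higher or more and all 3 encode enzymes that switch the complex. PDK2 and PDK4, kinases that inactivate it, had 19 and 116 counts (log2 ratio 2.44, interval 1.83 to 3.32; 1.81 with a pseudocount of 1 CPM) and 217 and 612 counts (1.42, interval 1.20 to 1.66). PDP1, a phosphatase that reactivates it, had 234 and 982 counts (1.99, interval 1.79 to 2.21). PDP2, the other phosphatase, had 488 and 408 counts (−0.33, interval −0.52 to −0.14), and PDK3, a further kinase, had 175 and 220 (0.26, interval −0.03 to 0.55), both named after their values were seen. The regulators of the complex thus went both ways. The other genes of the list ranged from −0.53 (MPC2) to 0.39 (MPC1), both carrier subunits named after their values were seen, and the median of the 12 was −0.02.

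In the pentose phosphate pathway, a branch of glucose metabolism, 5 of 7 genes were lower and the median was −0.25. PGD, an enzyme of its oxidative part, had 14753 and 9866 counts, a log2 ratio of −0.65 (−0.69 to −0.61). TKT, the transketolase, had 33896 and 23961 counts (−0.57, interval −0.59 to −0.55). Both were named after their values were seen. Both are abundant, at a mean of over 500 CPM, and lay below the lower quartile of −0.43 for rows of that level.

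Other HIF targets numbered 34, of which 33 passed, 18 higher and 15 lower, with a median of 0.08. LOX and LOXL2, which crosslink collagen, had 11 and 37 counts (1.54, interval 0.68 to 2.80) and 1096 and 2518 counts (1.13, interval 1.03 to 1.23). ANGPTL4, an inhibitor of lipoprotein lipase, had 113 and 264 counts (1.14, interval 0.83 to 1.49). These were the 3 of 33 genes on the list past 2-fold, all higher, where 6.48% of all rows were higher by as much. LOX passed the filter only through shUSP12, so the count of 3 is no support for a direction. With a pseudocount of 1 CPM, LOX lay below 2-fold, at 0.89. Among the 11 other HIF pathway components that passed, ARNT2, an alternative partner of the α subunits, had 245 and 102 counts, a log2 ratio of −1.32 (−1.68 to −0.995), while the median was −0.05. Of the other carriers, SLC2A12 had 7 and 63 counts (2.82, interval 1.97 to 4.47; 1.66 with a pseudocount of 1 CPM), with 7 of 12 genes passing and a median of 0.05. PCK2, a mitochondrial enzyme of gluconeogenesis, had 920 and 1688 counts (0.80, interval 0.69 to 0.92), and 3 of the 7 genes of that list passed, with a median of 0.04. Of the other glycolytic isozymes and side enzymes, 8 of 17 passed with a median of −0.10, and BPGM, the bisphosphoglycerate mutase, had the largest change, with 235 and 203 counts (−0.28, interval −0.56 to −0.004).

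**Figure D5:**
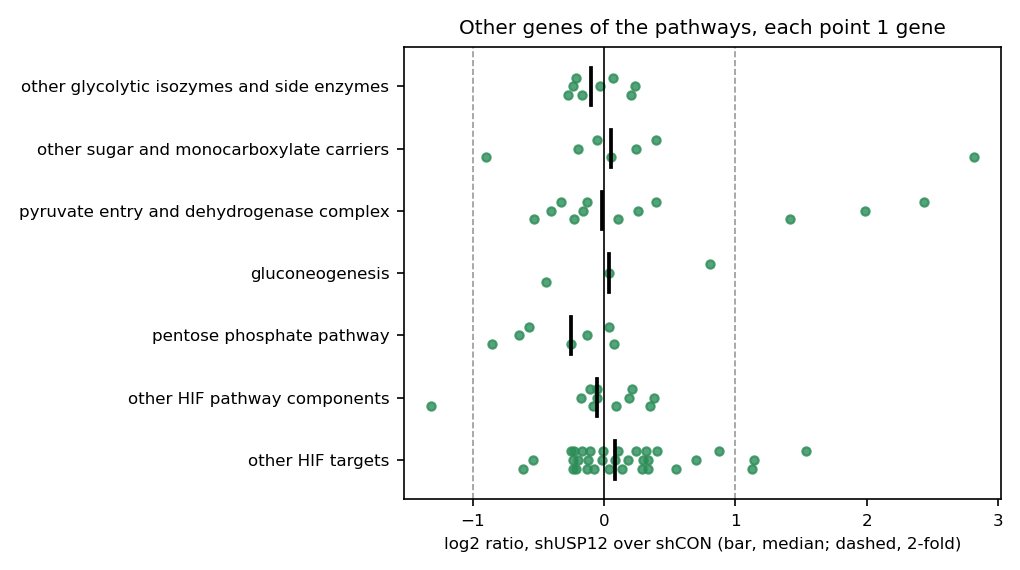
Log2 ratio of shUSP12 over shCON for each of the 81 genes that passed the filter in 7 lists of neighbouring pathways, 1 point a gene, with a bar at the median of each list and dashed lines at 2-fold. The medians lie between −0.25 and 0.08, PDK2, PDP1 and PDK4 lie to the right of the upper dashed line, and ARNT2 lies to the left of the lower one.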

How the data were processed

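RNA sequencing of H1944 cells gave 1 library for shCON and 1 for shUSP12, grouped by their treatment labels. The deposited values are raw fragment counts per gene that the authors made by mapping stranded mRNA libraries to GRCh38 with Hisat2 2.0.4. The methods name Seqtk for trimming and Stringtie for counting uniquely mapped fragments, whereas the submitters' processing notes list Trimmomatic and HTSeq 0.6.0, and neither states the annotation release or the strand setting. Lines without a count, 91 in either table, were left out. TMM factors (0.955 for shCON and 1.05 for shUSP12) came from edgeR 4.0.16 in R 4.3.3. Counts and medians were taken over rows whose mean reached 1 CPM. Intervals of CPM and log2 ratios are Clopper-Pearson, and those of ratios carry no pseudocount. Fragments without molecular identifiers are not independent molecules. Coordinates, exon lengths and overlaps came from GENCODE 44 on GRCh38, in which 99.1% of Ensembl rows were found. Python 3.11.15, SciPy 1.17.1, pandas 2.3.3 and Matplotlib 3.10.9 were used. The procedure was checked on simulated counts that held counting error alone, so the check does not cover variation between libraries. The genes and lists were chosen with earlier results of these data known. Named were the 39 genes, USP12 and, in each neighbouring list, every gene past 2-fold, at most 4, or else the gene that changed most. A gene picked by this rule is not reported here. Other names were chosen after seeing values. Alternatives were other pseudocounts, filters, thresholds, scalings (DESeq2 1.42.0 among them), protein-coding rows and means.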

Additional observations from a re-analysis of the deposited data

How the results depend on the processing

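No paired analysis was possible because the groups were single libraries, so none could be left out either. Values were called moved if a ratio lay outside its own counting interval, a median outside the median interval of its genes, or a count beyond 1.5 times. Of 444 values of 50 named genes under the alternatives, 402 stayed and 42 moved, 25 of these with total counts alone, and none of the genes past 2-fold changed direction. PDK1 and EGLN1 turned to above 0 with total counts alone, and PGK1 and SLC2A1 to just below 0 (−0.01 and −0.04) with upper quartile factors.

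The 4 genes at least 1.5-fold higher became 7 with total counts alone, under which the share of all rows past that fold went from 11.9% to 15.7%, the 2 at least 2-fold higher became 0 at 4-fold, and the 1 at least 1.5-fold lower became 0 with a pseudocount of 1 CPM or a mean of at least 5 CPM. With total counts alone the medians were −0.13 for the enzymes, 0.27 for the transporters and 0.51 for the HIF system. The enzymes stood at −0.31 with upper quartile factors, −0.16 as a mean in place of a median and −0.33 for those at 500 CPM or more, and the HIF system at 0.48 as a mean. The share of all rows at least 2-fold higher and lower was 12.5% and 7.13% at 0.1 CPM, 3.24% and 1.51% at 5 CPM, 4.94% and 1.46% with a pseudocount of 1 CPM, and 2.85% and 0.260% at 4-fold. The median of all 38 genes changed sign with total counts alone (0.02) and as a mean (0.02). At 5 CPM or more the median was also above 0 (0.01), but there ALDOA, LDHB and ANKRD37, all lower, no longer passed. The direction of the median thus depends on these settings. The regulators turned to 0.01 with total counts alone. A change of scaling shifts all ratios nearly alike, and under this one the median of all rows rose by 0.13. Why values moved under settings other than scaling was not tested. Levels of 100 and 500 CPM were chosen after seeing the data, as was leaving out ALDOA and LDHB. Without ALDOA and LDHB the medians were −0.20 for the enzymes and −0.05 for all genes examined. No named gene shared its symbol with another row. Counts of CA9 and ANKRD37 were too low to give a direction.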
